A study of Homo sapiens with 24 samples.

Results

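The heat shock response genes were followed here as a set of 10 named genes among the 61533 genes of the count table. They were chosen by symbol: the transcription factors HSF1 and HSF2, and the chaperones and cochaperones HSPA1A, HSPA1B, HSPH1, DNAJB1, BAG3, HSPB1, HSPD1 and HSPE1. All 10 were found, and all 10 passed the low-count filter that left 23651 genes for testing. Newly made RNA was measured in U2OS, a human osteosarcoma cell line, by 4sU-seq, in which the uridine analog 4-thiouridine enters RNA as it is transcribed and lets that RNA be purified. Label was given at 200 µM for the last hour before harvest, so each library holds RNA made in about that hour.

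All cells stably carried the glucocorticoid receptor (GR, the product of NR3C1) with a HaloTag, expressed from a CMV promoter, integrated with PiggyBac, selected with puromycin and sorted. The 3 lines differed in the receptor: wild-type GR (wt), K492A GR, made to bind RNA less well, with a smaller loss of DNA binding (SoF), and R470A GR, made to match that loss of DNA binding (Ctrl). Each line was a single pool, so the receptor and the pool cannot be told apart, and U2OS cells hold little GR of their own. The cells were grown in charcoal-stripped serum. The ligand was dexamethasone, a synthetic glucocorticoid, at 100 nM and for 1, 2 or 3 h, and the control dishes (0 h) were given 0.01% ethanol. There were 12 groups, and 2 libraries were made of each line at each time, so a line had 8 libraries, a time had 6, and there were 24 in all. How long the ethanol dishes were kept is not stated, so time since the medium change and dexamethasone cannot be told apart. Whether the libraries came from separate cultures is not stated, so p-values measure only the spread between them. Per the methods, biotinylation and pulldown were carried out in pairs of replicates. If each pair was handled apart from the other groups, variation between pulldowns is not in that spread. It then cannot be told apart from line or time.

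The heat shock response is the program by which cells raise chaperones when proteins misfold. HSF1 is its main activator: it is held inactive by chaperones, and on stress forms trimers that bind repeats of the unit GAA and its complement TTC in promoters. The HSP70 proteins made by HSPA1A and HSPA1B refold clients together with J-domain proteins such as DNAJB1, nucleotide exchange factors such as HSPH1 and BAG3, and small heat shock proteins such as HSPB1. HSPD1 and HSPE1 are the mitochondrial chaperonin and its lid. Unliganded GR is itself held by HSP70 and HSP90 machines, which bring it to a state that can bind hormone.

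Upstream sequence bears on which of these genes carry a site of the kind HSF1 binds, so promoters were read from RefSeq (GRCh38.p14), where 9 of the 10 genes had an entry and HSF1 did not. Within 250 bases upstream of an annotated start, 5 of the 9 genes held an inverted repeat of 8 letters, GAANNTTC or TTCNNGAA, each of which reads the same on both strands. Among all 35116 promoters in the table, 11.58% held one, and among all 27305 genes 13.96% did. The 5 windows of 120 bases that hold these repeats are shown to let the genes be compared by eye, 5′ to 3′ on the strand of the gene, with the repeats in capitals.
HSPA1A, chr6:31815423-31815542, plus strand: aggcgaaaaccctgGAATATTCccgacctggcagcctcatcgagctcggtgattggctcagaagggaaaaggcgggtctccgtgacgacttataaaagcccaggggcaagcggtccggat
HSPA1B, chr6:31827618-31827737, plus strand: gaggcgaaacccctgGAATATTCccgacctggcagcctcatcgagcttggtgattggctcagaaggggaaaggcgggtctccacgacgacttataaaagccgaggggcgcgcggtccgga
DNAJB1, chr19:14518398-14518517, minus strand: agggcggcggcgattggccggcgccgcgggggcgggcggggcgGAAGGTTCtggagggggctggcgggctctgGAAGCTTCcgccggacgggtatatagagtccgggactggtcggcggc
HSPB1, chr7:76302463-76302582, plus strand: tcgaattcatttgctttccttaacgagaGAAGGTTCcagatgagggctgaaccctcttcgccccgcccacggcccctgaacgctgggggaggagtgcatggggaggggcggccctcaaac
HSPD1, chr2:197499971-197500090, minus strand: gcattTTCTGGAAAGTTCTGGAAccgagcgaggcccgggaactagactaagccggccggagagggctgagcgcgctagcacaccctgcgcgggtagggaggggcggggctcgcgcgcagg

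HSPA1A and HSPA1B carried the same repeat at position -106 and -105 from their starts, and a TATAAA stretch at -30 and -29. TATAAA was present on either strand in 10.72% of all promoters, and in HSF2 it stood at -172. DNAJB1 held 2 repeats, at -77 and -47 from the second of its 3 listed starts. HSPD1 held 3 that overlap, at -245, -240 and -235 from the second of its starts, and HSPB1 held 1 at -182. HSF2, HSPH1, BAG3 and HSPE1 held neither form in these windows, which says only that these letters are not there. For HSPE1 it depends on the start used. The HSPD1 window shown ends at 197500090 and also lies upstream of HSPE1, beyond the 250 bases read from its RefSeq start at 197500379. GENCODE places the HSPE1 start nearer, at 197500140. From the first listed HSPD1 start, 197500274, the 3 repeats lie downstream. AGAACA, the hexamer that each GR monomer is known to bind, was on neither strand in any of the 9 genes. It was present in 14.82% of all genes and in 12.39% of all promoters. Only 250 bases upstream were read, while per the paper GR favors enhancers far from gene starts.

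In per-length terms, HSPB1 and HSPA1A had the highest levels of the 10 genes. Averaged over the 24 libraries, and written as scaled CPM (the count divided by the TMM-scaled library total and put on the usual CPM scale) per kilobase of exon, HSPB1 stood at 87.3 ± 26.8 (SD, n = 24) and HSPA1A at 69.2 ± 20.6. HSPD1 (40.5 ± 5.42), HSPA1B (37.8 ± 10.7) and DNAJB1 (36.4 ± 6.35) followed, each within the spread of the next. HSPE1 (23.7 ± 4.11) and BAG3 (20.2 ± 4.50) came below them and were again within each other's spread. HSPH1, HSF2 and HSF1 were lowest, between 11.7 and 12.1 CPM per kilobase. Exon length here is the union over all annotated transcripts, which for HSPH1, DNAJB1 and HSPD1 includes long forms and lowers their value. HSPA1A and HSPA1B share most of their sequence, and HSPA1B overlaps another gene on its strand, as described below. How such reads were counted is not given, so the levels and order of HSPA1A and HSPA1B are uncertain. Raw counts for the 10 genes ran from 240 for HSF2 to 5624 for DNAJB1 in a single library.

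Total counts per library ranged from 8106036 to 15820806. Of the 9 genes listed for the osteoblast lineage, RUNX2, COL1A1, SPARC and ALPL had medians of 106, 528, 255 and 21.8 CPM, and SPP1, BGLAP, COL1A2, SP7 and IBSP of at most 1.37 CPM. Of the epithelial list, KRT8 and KRT18 had medians of 169 and 250 CPM, and EPCAM and CDH1 of 1.89 and 4.58 CPM. Of the blood list, HBB was at 0 in all 24 libraries and CD3E in 22, while PTPRC was in every library at 0.270 to 2.17 CPM. Of the endothelial list, VWF was in every library at 1.70 to 5.07 CPM and PECAM1 had a median of 0.0883 CPM. NR3C1 RNA, with transgene and endogenous gene not told apart, ranged from 334 to 1595 CPM in wt, 1118 to 6273 in SoF and 1627 to 7658 in Ctrl. At 0 h, replicate 1 stood above replicate 2 for 7 of the 10 genes in SoF, for the same 7 in Ctrl and for 6 in wt. HSPA1A and HSPA1B were among these in each line, and the share over all genes was not counted. The 0 h libraries also differed in total count, 13410755 against 9199479 in SoF and 14320028 against 8106036 in Ctrl. The part of this difference in the results was not tested. Values without the 0 h libraries of both replicate numbers in turn are given below for HSF1 and HSPA1A. For HSF2, DNAJB1, BAG3, HSPD1 and HSPE1 they are given for only one replicate number. For HSPA1B, HSPH1 and HSPB1 they are not given.

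The first question was whether newly made RNA of these genes changed with time in dexamethasone. At 3 h against 0 h, averaged over the 3 lines, 8 of the 10 genes rose, DNAJB1 fell, and HSF2 was not called. A gene was called when its p in the quasi-likelihood test of edgeR, adjusted by Benjamini-Hochberg over all 23651 genes, was under 0.05. The same rule called 40.3% of all genes in this comparison, 20.9% higher and 19.3% lower. The median log2 change of the 10 genes was 0.38, against -0.03 for all genes tested. The changes were below 2-fold for every one of the 10 genes. At 2 h against 0 h, 5 genes rose and 1 fell, against 28.8% of all genes called, 16.2% higher and 12.6% lower. At 1 h against 0 h none of the 10 was called, against 1.28% of all genes, and DESeq2 also called none. In edgeR, 4 of the 10 had an unadjusted p under 0.05, against 3332 of all 23651 genes. These 4 were HSF1, HSPA1A, HSPA1B and DNAJB1, all with a negative log2 change.

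**Figure D1:**
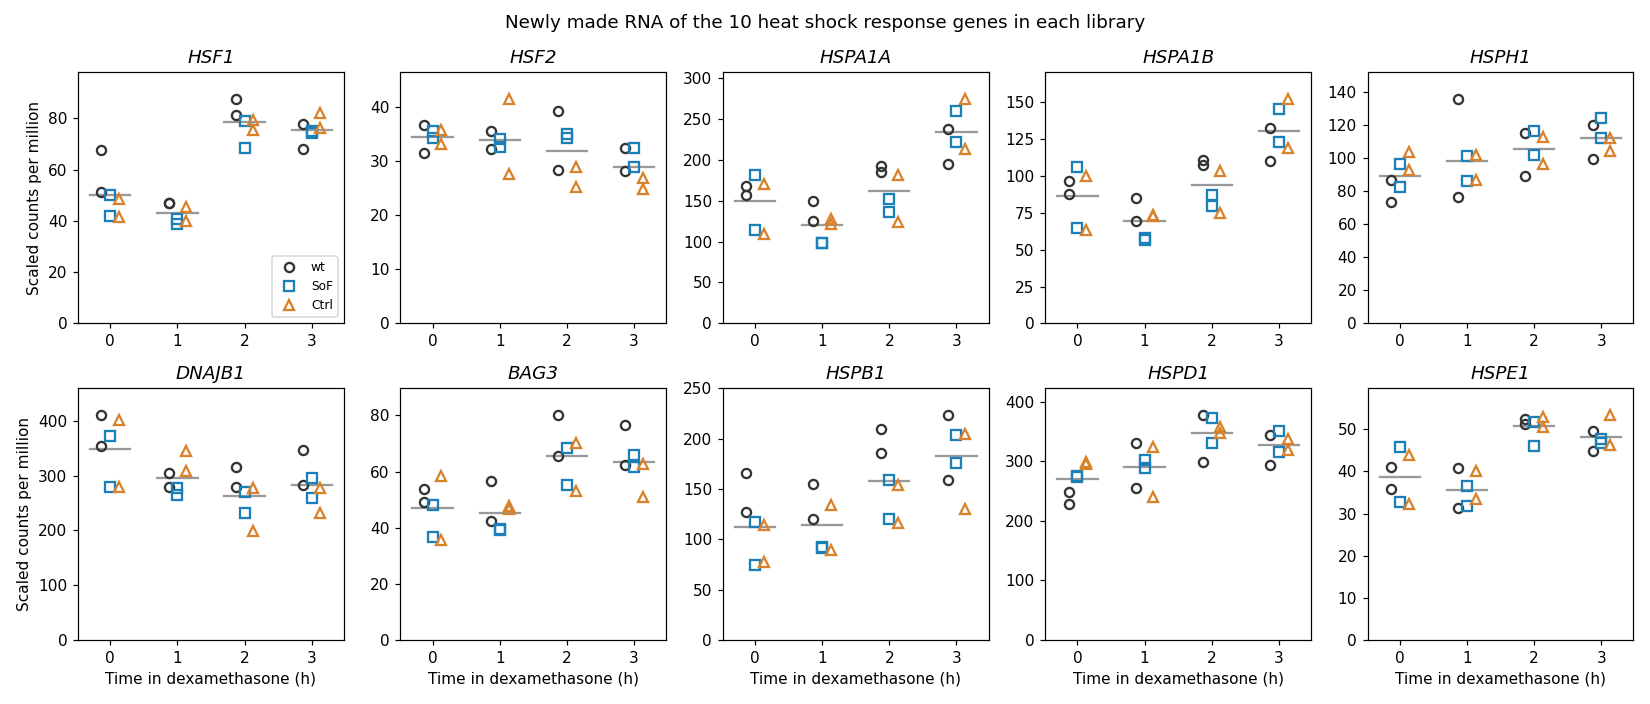
Scaled CPM of each gene in each of the 24 libraries (vertical axes, from 0) against hours in dexamethasone (horizontal axes), with wt as circles, SoF as squares, Ctrl as triangles and the mean of the 6 libraries of a time as a grey bar. HSF1 lies between 68.3 and 87.7 CPM at 2 and 3 h and between 38.6 and 67.5 CPM at 0 and 1 h, while HSPA1A is highest at 3 h, from 195 to 274 CPM.

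HSF1, the factor that drives the program, was called higher at 2 h and at 3 h. In wt it stood at 67.5 and 51.2 CPM at 0 h, 47.0 and 46.9 at 1 h, 81.2 and 87.7 at 2 h, and 68.3 and 77.7 at 3 h. In SoF the values were 50.05 and 42.1 at 0 h, 38.6 and 40.6 at 1 h, 79.0 and 68.7 at 2 h, and 75.2 and 74.4 at 3 h. In Ctrl they were 48.4 and 41.5, 40.1 and 45.5, 75.5 and 79.4, and 76.3 and 82.1 CPM at the same times. All 12 libraries at 2 and 3 h lay above all 12 at 0 and 1 h, a split that HSF1 alone of the 10 genes showed and that 2.99% of all genes showed. Averaged over lines, HSF1 rose 1.58-fold at 2 h (log2 0.66 ± 0.08 SE, adjusted p = 5.06e-06 by edgeR) and by log2 0.60 ± 0.08 at 3 h (adjusted p = 6.82e-06). Leaving out the 3 replicate 1 libraries at 0 h gave an HSF1 change of 0.76 at 3 h, and leaving out the 3 replicate 2 libraries gave 0.47, both still called. An exon stretch of 2.58% of the length of HSF1 overlaps DGAT1 on the other strand, which had 6.93 to 16.7 CPM. HSF1 lies on chromosome 8, 144291591 to 144314720 (hg38), plus strand.

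HSF2, a related factor that can join HSF1 in mixed trimers, went the other way in its values without passing the test. Its 6 libraries at 0 h lay between 31.6 and 36.8 CPM, with a median of 35.0, and its 6 libraries at 3 h between 24.9 and 32.6 CPM, with a median of 28.6. The ranges of the 2 times overlapped. The change at 3 h was log2 -0.26 ± 0.10, with an adjusted p of 0.05002 by edgeR, just above the threshold. With a term for the replicate number, or without the 3 replicate 1 libraries at 0 h (log2 -0.32, adjusted p = 0.0425), HSF2 was called lower. The lowest 3 h values were those of Ctrl, 26.9 and 24.9 CPM.

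HSPA1A and HSPA1B, the inducible HSP70 genes of the class III region of the major histocompatibility complex, were called higher at 3 h and not at 1 or 2 h. HSPA1A had 167 and 157 CPM at 0 h in wt, 125 and 149 at 1 h, 186 and 192 at 2 h, and 195 and 237 at 3 h. SoF gave 181 and 114, 98.6 and 98.8, 152 and 137, and 221 and 259 CPM. Ctrl gave 170 and 109, 121 and 128, 124 and 181, and 213 and 274 CPM. The 6 libraries at 3 h lay above all 6 at 0 h for both genes, as they did for HSF1 and for 9.89% of all genes, and the 2 h libraries overlapped those at 0 h. At 3 h, HSPA1A rose 1.56-fold over lines (log2 0.64 ± 0.12, adjusted p = 0.000273 by edgeR) and HSPA1B by log2 0.59 ± 0.12 (adjusted p = 0.000559). At 2 h the changes of HSPA1A and HSPA1B were 0.11 ± 0.12 and 0.11 ± 0.12, and neither was called. Leaving out the 3 replicate 1 libraries at 0 h gave an HSPA1A change of 0.90 at 3 h, and leaving out the 3 replicate 2 libraries gave 0.44, both still called.

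The 2 genes cannot be read as independent. They lie 12195 bases apart on chromosome 6, start to start, at 31815543 to 31817946 and 31827738 to 31830254 (hg38), both on the plus strand and each in a single exon. Their coding sequences are 1923 bases each and differ at 4 positions. In the main transcripts, 69.57% of all 150-base windows of HSPA1A occur unchanged in HSPA1B, and 66.13% the other way round. The sequenced reads were 150 bases long at each end, and how reads that match both genes were counted is not given in the sources used here. Upstream, the pair differed at 14 of 249 aligned bases. The ratio of HSPA1A to HSPA1B counts stayed between 1.65 and 1.80 in all 24 libraries, with a median of 1.75. At 3 h it was 1.79 ± 0.0092 (SD, n = 6), against 1.73 ± 0.0337 at 0 h. Summed as 1 feature, the pair changed by log2 0.62 ± 0.12 at 3 h over lines (adjusted p = 0.00037 by edgeR), close to the values of HSPA1A and HSPA1B alone. HSPA1B also shares 36.55% of its exon length with a long noncoding RNA on the same strand, ENSG00000285565, which had 44.8 to 84.9 CPM.

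**Figure D2:**
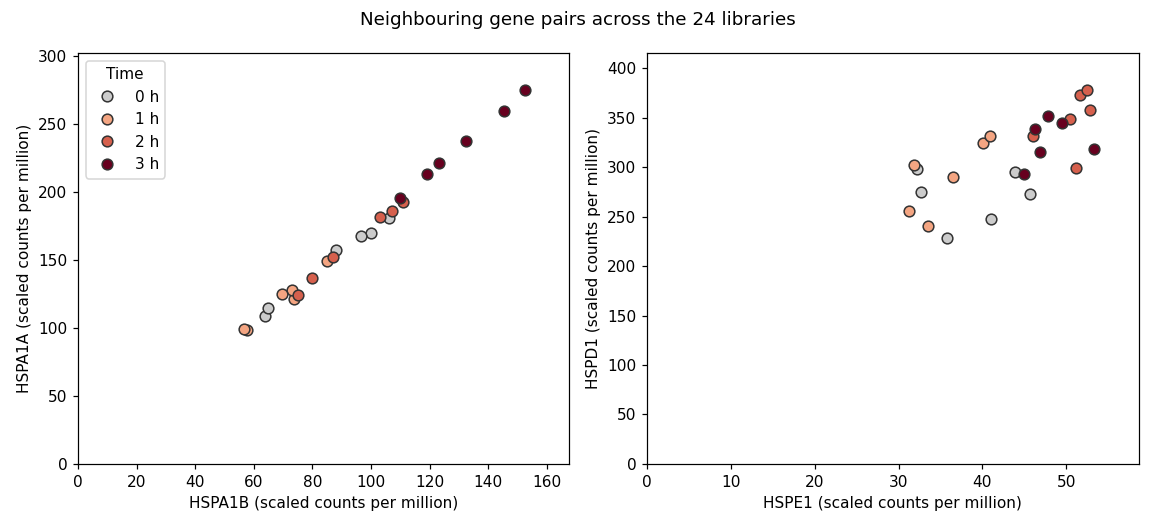
HSPA1A against HSPA1B (left) and HSPD1 against HSPE1 (right), in scaled CPM from 0 on both axes, 1 point per library and darker with time. The HSPA1A to HSPA1B ratio lies between 1.65 and 1.80 across the 24 points, while the HSPD1 to HSPE1 ratio lies between 5.84 and 9.50.

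DNAJB1, the J-domain protein that delivers clients to HSP70 and, in turn, acts in switching HSF1 off, fell. It had 355 and 410 CPM at 0 h in wt, 373 and 279 in SoF, and 402 and 279 in Ctrl. At 3 h wt gave 283 and 348 CPM, SoF 259 and 295, and Ctrl 232 and 278. The 0 h and 3 h libraries overlapped, whereas 6.76% of all genes had every 3 h library below every 0 h library. The replicate 2 libraries of SoF and Ctrl at 0 h lay within the 3 h range. Averaged over lines, DNAJB1 fell at 2 h (log2 -0.42 ± 0.11, adjusted p = 0.00613 by edgeR) and was 1.24-fold lower at 3 h (log2 -0.31 ± 0.11, adjusted p = 0.027). The 3 h call was lost without the 3 replicate 1 libraries at 0 h (log2 -0.17, adjusted p = 0.22 by edgeR). It was also lost when any 1 of 6 single libraries was left out: wt 0 h replicate 2 (-0.27), wt 3 h replicate 1 (-0.26), SoF 0 h replicate 1 (-0.23), SoF 3 h replicate 1 (-0.28), Ctrl 0 h replicate 1 (-0.21) or Ctrl 3 h replicate 1 (-0.27). From 1 h to 3 h the DNAJB1 change was -0.07 ± 0.11, which was not called.

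Both exchange factors for HSP70 were called higher at 3 h, and BAG3 also at 2 h. BAG3, which links HSP70 to small heat shock proteins and to selective autophagy, ranged from 35.4 to 58.6 CPM at 0 h, with a median of 48.7, and from 51.1 to 76.6 CPM at 3 h, with a median of 62.4. BAG3 changed by log2 0.48 ± 0.12 at 2 h (adjusted p = 0.00483 by edgeR) and 0.43 ± 0.12 at 3 h (adjusted p = 0.00686). Without the 3 replicate 2 libraries at 0 h the 3 h change of BAG3 was 0.25 (adjusted p = 0.128) and was not called. HSPH1, the HSP110 protein, ranged from 73.4 to 104 CPM at 0 h and from 99.5 to 124 CPM at 3 h. It was called at 3 h only, at 0.33 ± 0.11 (adjusted p = 0.0246), and its 2 h change was 0.24 ± 0.11. The HSPH1 call at 3 h was lost without wt 0 h replicate 1 (0.29), wt 3 h replicate 1 (0.29), SoF 0 h replicate 1 (0.30), SoF 3 h replicate 2 (0.31), Ctrl 0 h replicate 1 (0.31) or Ctrl 3 h replicate 1 (0.32). The 2 wt libraries of HSPH1 at 1 h, at 76.4 and 136 CPM, stood farther apart than those of any other group for that gene.

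HSPB1, the small heat shock protein HSP27, had the largest 3 h change of the 10 genes over lines. It had 127 and 166 CPM at 0 h in wt, 117 and 74.2 in SoF, and 114 and 77.3 in Ctrl. At 3 h it had 159 and 223 in wt, 176 and 204 in SoF, and 130 and 204 in Ctrl. Within SoF and within Ctrl the 3 h libraries of HSPB1 lay above the 0 h libraries, and within wt they overlapped. With 2 libraries at each time this says little, and its share over all genes was not counted. The difference between lines was tested separately, as given below. HSPB1 rose 1.65-fold at 3 h (log2 0.73 ± 0.15, adjusted p = 0.000484 by edgeR) and by 0.49 ± 0.15 at 2 h (adjusted p = 0.0155). The 2 h call was lost without wt 0 h replicate 1 (0.41), wt 2 h replicate 2 (0.45), SoF 0 h replicate 2 (0.39), SoF 2 h replicate 1 (0.42), Ctrl 0 h replicate 2 (0.40) or Ctrl 2 h replicate 2 (0.41). The HSPB1 call at 3 h was kept without any single library, with changes from 0.61 to 0.86. The change without the 3 replicate 2 libraries at 0 h together, which hold its lowest 0 h values, is not given here.

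The mitochondrial chaperonin genes HSPD1 and HSPE1 were both called higher at 2 h and at 3 h. They are neighbours on chromosome 2 that are transcribed away from each other, with the RefSeq start of HSPE1 105 and 539 bases from the 2 listed starts of HSPD1. HSPD1 ranged from 229 to 299 CPM at 0 h and from 299 to 378 CPM at 2 h, and HSPE1 from 32.1 to 45.7 CPM at 0 h and from 46.0 to 52.8 CPM at 2 h. All 6 libraries at 2 h lay above all 6 at 0 h for HSPD1 and HSPE1, as for HSF1 and 5.62% of all genes. The changes at 2 h were 0.37 ± 0.09 for HSPD1 (adjusted p = 0.00406 by edgeR) and 0.39 ± 0.10 for HSPE1 (adjusted p = 0.0059). At 3 h they were 0.28 ± 0.09 for HSPD1 (adjusted p = 0.0171) and 0.31 ± 0.10 for HSPE1 (adjusted p = 0.0167). The 3 h call of HSPE1 was lost without SoF 0 h replicate 2 (0.25), Ctrl 0 h replicate 2 (0.25) or Ctrl 3 h replicate 2 (0.29), and that of HSPD1 without wt 3 h replicate 1 (0.25) or SoF 3 h replicate 2 (0.26). Without the 3 replicate 2 libraries at 0 h, neither HSPD1 (0.27) nor HSPE1 (0.15) was called at 3 h. The HSPD1 to HSPE1 count ratio was not fixed: it was 7.14 ± 1.38 (SD, n = 6) at 0 h, 8.16 ± 0.753 at 1 h and 6.81 ± 0.519 at 3 h. HSPE1 shares 10.53% of its exon length with the readthrough gene HSPE1-MOB4 (median 18.5 CPM), HSPD1 and HSPE1 overlap on opposite strands over 135 bases, and HSPB1, HSPD1 and HSPE1 have processed pseudogenes elsewhere in the genome, so their counts carry some uncertainty.

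**Figure D3:**
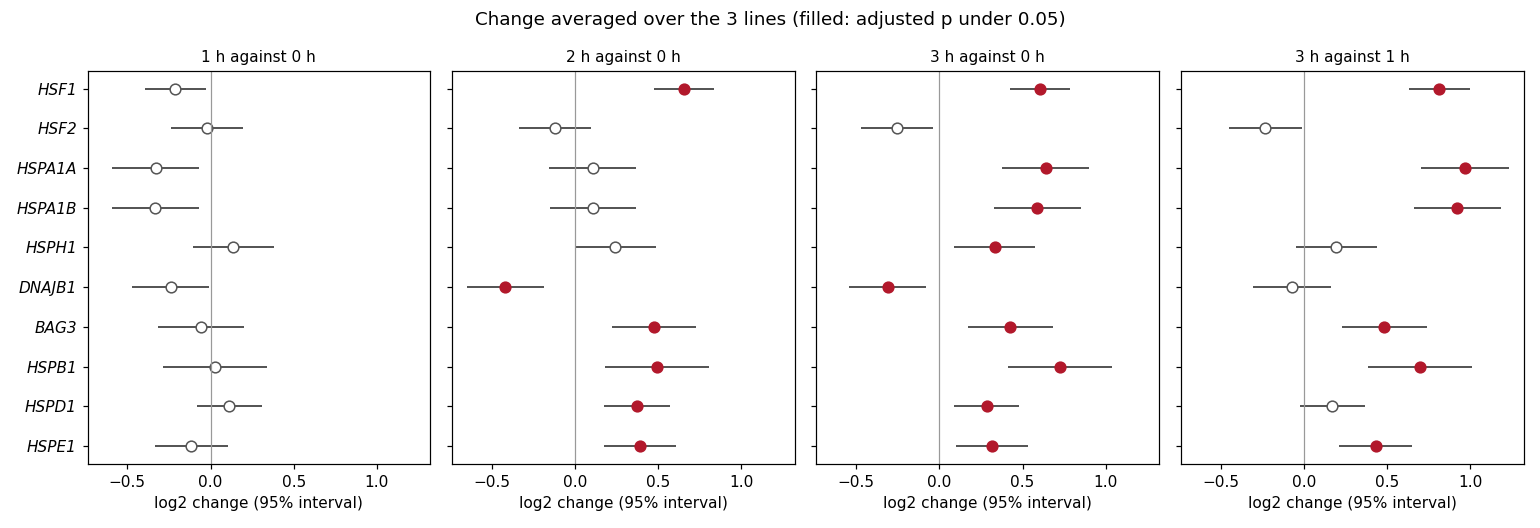
Log2 change of each gene averaged over the 3 lines (horizontal axes, points) with its 95% interval (lines), for 1, 2 and 3 h against 0 h and for 3 h against 1 h; filled points have an adjusted p under 0.05. At 3 h against 0 h the points run from -0.31 for DNAJB1 to 0.73 for HSPB1, and at 3 h against 1 h HSPA1A reaches 0.97.

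A comparison that uses no ethanol library was made between 3 h and 1 h of dexamethasone. Over lines, 6 of the 10 genes rose and none fell, against 50.6% of all genes called, 25% higher and 25.6% lower. HSPA1A changed most, by log2 0.97 ± 0.12 (1.96-fold, adjusted p = 1.64e-06 by edgeR), followed by HSPA1B at 0.92 ± 0.12 and HSF1 at 0.81 ± 0.09. HSPB1 (0.70 ± 0.15), BAG3 (0.48 ± 0.12) and HSPE1 (0.43 ± 0.10) were also called, and HSPH1 (0.19 ± 0.11), HSPD1 (0.17 ± 0.09), DNAJB1 and HSF2 (-0.23 ± 0.10) were not. The 3 h libraries lay above all 1 h libraries for HSF1, HSPA1A, HSPA1B and HSPE1, as they did for 14.2% of all genes. All 6 calls were kept without any single library.

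The second question was whether the receptor mutants changed these responses. Within wt, HSF1 was called at 2 h (log2 0.51 ± 0.14, adjusted p = 0.0447 by edgeR) and none of the 10 genes at 3 h, against 4.6% and 10.7% of all genes. The wt call of HSF1 was lost under 18 of the 24 single-library omissions, with changes from 0.32 without wt 0 h replicate 2 to 0.55 without wt 2 h replicate 1 among them. At 3 h in wt, 3 of the 10 had an unadjusted p under 0.05 in edgeR, against 5851 of all 23651 genes. DESeq2 called none of the 10. Within SoF, HSF1 was called at 2 h (0.68 ± 0.15, against 5.68% of all genes), and HSF1 (0.70 ± 0.15), HSPA1A (0.70 ± 0.21), HSPA1B (0.65 ± 0.21) and HSPB1 (0.99 ± 0.26) at 3 h, against 19.3%. Within Ctrl, HSF1 was called at 2 h (0.78 ± 0.15, against 7.95%), and the same 4 genes were called at 3 h against 14.2% of all genes. Their 3 h changes in Ctrl were 0.81 ± 0.15 for HSF1, 0.80 ± 0.21 for HSPA1A, 0.73 ± 0.21 for HSPA1B and 0.80 ± 0.26 for HSPB1. At 1 h, neither edgeR nor DESeq2 called any of the 10 genes within a line, against 0.156% of all genes called by edgeR for wt, 0.165% for SoF and 0.0465% for Ctrl. The number of the 10 with an unadjusted p under 0.05 at 1 h was 1 for wt, 2 for SoF and 0 for Ctrl. Over all 23651 genes it was 2602 for wt, 1645 for SoF and 423 for Ctrl.

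Leaving out single libraries ended several of these calls within a line. In SoF at 3 h, HSPA1A and HSPA1B lost their calls without SoF 0 h replicate 2 (0.41 and 0.34), SoF 3 h replicate 1 (0.81 and 0.76) or SoF 3 h replicate 2 (0.58 and 0.53), and HSPB1 without SoF 0 h replicate 2 (0.70) or SoF 3 h replicate 2 (0.88). In Ctrl at 3 h, HSPA1A and HSPA1B lost them without Ctrl 0 h replicate 2 (0.52 and 0.44) or Ctrl 3 h replicate 2 (0.61 and 0.54). HSPB1 in Ctrl lost its call without either of these (0.55 and 0.44), and also without SoF 3 h replicate 1 or 2, which left its change at 0.80. HSF1 kept its 3 h calls in SoF and Ctrl throughout, and lost those at 2 h without SoF 0 h replicate 2 (0.55), SoF 2 h replicate 1 (0.58) or, in Ctrl, Ctrl 0 h replicate 2 (0.66). With 1 h as the baseline for 3 h, HSPB1 in Ctrl changed by 0.58 and was not called.

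That a gene was called in the mutants and not in wt does not show a difference between them, so the difference of the 3 h responses was tested itself. None of the 10 genes was called for any pair of lines by edgeR or DESeq2. All genes gave 0.0127% called for SoF against Ctrl and 0% for each mutant against wt. The largest differences from wt were those of HSPB1 in SoF, 0.60 on the log2 scale (95% interval -0.14 to 1.35), and HSF1 in Ctrl, 0.52 (0.09 to 0.94, adjusted p = 0.982), the only member with an unadjusted p under 0.05. Of all 23651 genes, 845 had an unadjusted p under 0.05 for Ctrl against wt, 558 for SoF against wt and 671 for SoF against Ctrl. Between SoF and Ctrl the response of HSPA1A differed by -0.10 (-0.73 to 0.52) and that of HSPB1 by 0.19 (-0.56 to 0.94). These intervals are wide enough to hold differences as large as the responses themselves, so the design does not show that the lines respond alike.

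Levels were then compared between lines with treatment time ignored, as the methods of the study did for each mutant against wt. None of the 10 genes was called in any of the 3 comparisons by edgeR or DESeq2. The edgeR rule called 8.02% of all genes for SoF against wt, 4.77% for Ctrl against wt and 3.61% for SoF against Ctrl. None of the 10 had an unadjusted p under 0.05 in edgeR, against 5308, 3988 and 3019 of all 21122 genes tested, in the same order. HSPB1 had the largest differences: 168 ± 36.5 CPM (SD, n = 8) in wt, 129 ± 45.8 in SoF and 127 ± 39.5 in Ctrl. On the log2 scale, HSPB1 differed by -0.37 for SoF against wt (95% interval -0.78 to 0.03) and by -0.40 for Ctrl against wt (-0.80 to 0.01). The ranges of HSPB1 in the 3 lines overlapped, and the coefficient of variation over all genes was 24.01% in this fit against 14.2% in the fit with 1 group per line and time. With time as a term in the fit, HSPB1 was called lower in SoF (-0.42 ± 0.12, adjusted p = 0.0137) and in Ctrl (-0.42 ± 0.12, adjusted p = 0.02), and HSF1 lower in SoF (-0.18 ± 0.07, adjusted p = 0.0488). SoF and Ctrl gave no called gene under that fit either, and HSPB1 differed between them by 0.00 ± 0.12. The shares of all genes above belong to the fit with time ignored, and no share is given here for the fit with time. HSF1 averaged 65.9 ± 16.0 CPM in wt, 58.6 ± 17.4 in SoF and 61.1 ± 18.7 in Ctrl. NR3C1 itself had a median of 633 CPM in wt, 2187 in SoF and 2858 in Ctrl, and its part in these differences was not tested. These are RNA values and do not give the amount of receptor. Per the paper, sorted fractions were picked by immunofluorescence so that nuclear GR protein matched between lines after dexamethasone.

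**Figure D4:**
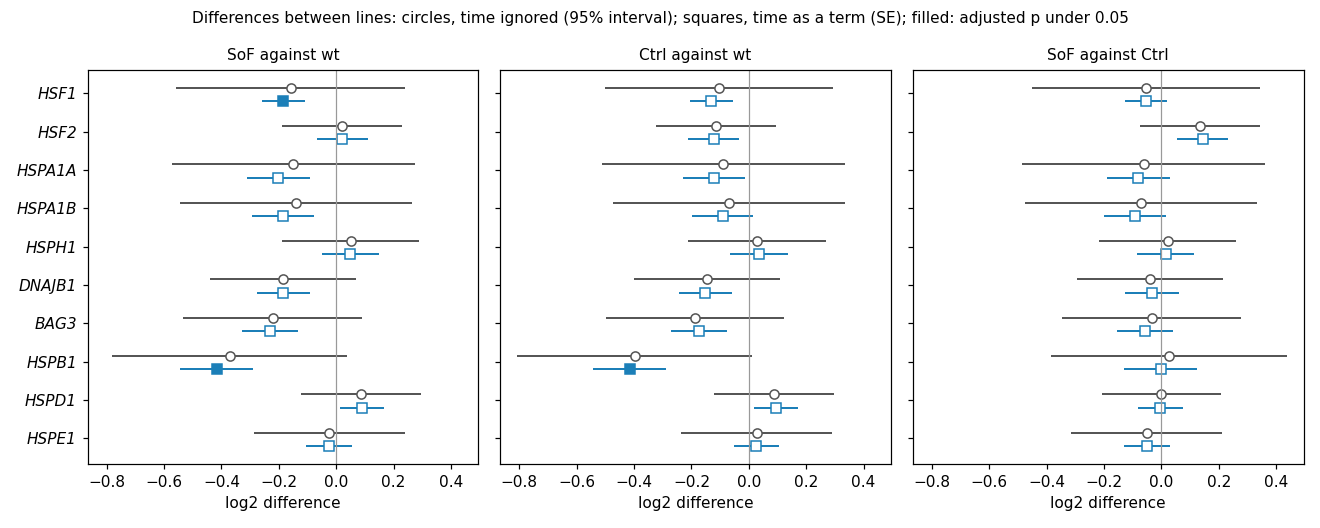
Log2 difference of each gene between lines, with time ignored (circles, 95% interval) and with time as a term (squares, SE); filled symbols have an adjusted p under 0.05. HSPB1 lies at -0.37 and -0.40 for SoF and Ctrl against wt, the only gene of the 10 that is filled in both of those panels once time is a term.

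The wider chaperone system was read from gene lists, each given by its counts at 3 h against 0 h over lines, beside the 20.9% of all genes called higher and 19.3% lower. Of 9 tested genes of the other HSP70 family, 4 rose and 1 fell. HSPA6, a strictly stress-induced HSP70, changed most (1.73 ± 0.35) but stayed at 2.08 ± 0.591 CPM (SD, n = 6) at 3 h, from 0.573 ± 0.358 at 0 h. HSPA8, the constitutive HSP70, rose by 0.58 ± 0.12, from 855 ± 177 to 1278 ± 75.8 CPM. HSPA1L (0.68 ± 0.23) and HSPA4 (0.36 ± 0.08) rose and HSPA14 fell (-0.27 ± 0.10). Of 10 HSP90 genes and cochaperones, 5 rose and none fell: FKBP4, an immunophilin that rides on HSP90 in GR complexes, rose by 1.02 ± 0.13, STIP1, which hands clients from HSP70 to HSP90, by 0.55 ± 0.11, CACYBP by 0.54 ± 0.08 and AHSA1, which speeds the HSP90 ATPase, by 0.42 ± 0.11. The fifth was HSP90AA1, at 0.22 ± 0.08.

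Among 5 tested small heat shock proteins other than HSPB1, 3 rose and 1 fell. CRYAB rose by 1.52 ± 0.13, from 62.5 ± 18.0 to 177 ± 42.2 CPM, with no overlap between its 0 h libraries (36.8 to 84.1 CPM) and 3 h libraries (133 to 252 CPM). HSPB7 (1.29 ± 0.26) and HSPB2 (0.65 ± 0.22), with at most 6.10 and 6.64 CPM at 3 h, rose, and HSPB8, the partner of BAG3, fell (-0.34 ± 0.12). Of 12 other J-domain and BAG proteins, 2 rose and 2 fell: STUB1, the ubiquitin ligase of HSP70 (0.73 ± 0.15), DNAJA1 (0.41 ± 0.10), DNAJB4 (-0.39 ± 0.11) and DNAJA4 (-0.29 ± 0.10). Of 5 mitochondrial chaperones and proteases, 4 rose: DNAJA3 (0.76 ± 0.12), CLPP (0.71 ± 0.13), TRAP1 (0.68 ± 0.09) and GRPEL1 (0.34 ± 0.10). Of 8 subunits of TRiC, the cytosolic chaperonin, CCT3 (0.50 ± 0.08) and TCP1 (0.19 ± 0.07) rose and CCT2 fell (-0.27 ± 0.07).

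Of 8 ER chaperones, which answer to the unfolded protein response and not to HSF1, 4 rose and none fell: SDF2L1 (0.51 ± 0.15), PDIA4 (0.36 ± 0.11), HYOU1 (0.34 ± 0.11) and DNAJC3 (0.30 ± 0.11). HSPA5, the chief ER chaperone, was at 0.01 ± 0.14. Of 2 tested genes among the other HSF genes and the HSF1 binding protein, HSF4 rose (0.77 ± 0.16, from 2.11 ± 0.375 to 3.60 ± 0.555 CPM). Of 8 other genes induced by heat shock, DEDD2 rose (0.28 ± 0.11), while CLU (-1.32 ± 0.11) and IER5, which is known to activate HSF1, (-0.90 ± 0.09) fell. Serum-response immediate-early genes fell in 8 of 8 cases, led by EGR1 (-4.75 ± 0.19), FOSB (-3.99 ± 0.23), ATF3 (-3.57 ± 0.16) and FOS (-3.37 ± 0.19). EGR1 went from 4735 ± 951 CPM at 0 h and 4507 ± 1119 at 1 h to 179 ± 38.3 at 3 h, and whether the heat shock gene values moved with these genes was not tested.

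**Figure D5:**
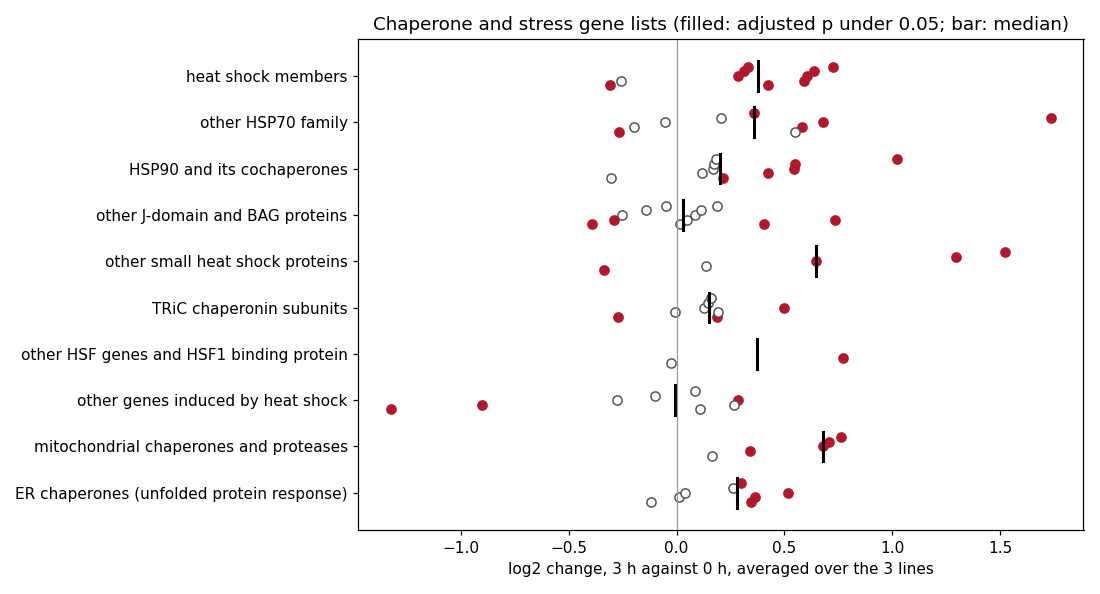
Log2 change at 3 h against 0 h averaged over the 3 lines (horizontal axis) for each tested gene of the heat shock set (top row) and of 9 other chaperone and stress lists, with filled points for an adjusted p under 0.05 and a bar at the median of each list. The heat shock set has its median at 0.38, and CLU at -1.32 and HSPA6 at 1.73 are the ends of the plot.

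For HSPH1, DNAJB1 and HSPD1, the genes with the most similar pattern were sought among 11397 genes with a mean of at least 10 CPM, by Pearson's r of log2 CPM over the 24 libraries. These libraries share treatment times and depth, so r is a description only. HSPD1 was most like RIOX2 (r = 0.96), WDR43 (0.95), SLC16A1 (0.94), UTP25 (0.94) and WDR3 (0.94). HSPH1 was most like GPATCH11 (r = 0.90), EIF4E (0.88), IPPK (0.88), USPL1 (0.88) and ZNF286A (0.87). DNAJB1, the gene that fell, was most like TSC22D1 (r = 0.84), CNN3 (0.83), TMSB4X (0.82), KIF2C (0.81) and ACTB (0.80).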

How the data were processed

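Per the labels and the methods of the study, the authors tagged unique molecular identifiers (UMI-tools 1.1.2), trimmed reads (Trim Galore 0.6.6), aligned them to hg38 (STAR 2.7.3a), removed duplicates and counted reads over exons with featureCounts on GENCODE release 39. The deposited values are these raw read counts per gene. They were not normalized. Strand-specific counting is named only in the title of the table. Symbols and hg38 positions came from GENCODE release 44, which matched 99.73% of the 61533 identifiers. All 24 libraries were used.

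Counts were scaled by TMM and filtered with filterByExpr (minimum count 10, total 15), and were fitted in edgeR 4.0.16 (R 4.3.3) with 12 groups of line and time, or with 3 lines. Quasi-likelihood tests were adjusted over all genes and called at 0.05. SE is the log2 change divided by the square root of F. The replicate numbers were not taken to pair the samples: deviations from group means had a median correlation of 0.04 over 66 pairs of groups, with 21 over 0.1, although the 3 pairs of 0 h groups had 0.39 to 0.57. Alternatives were DESeq2 1.42.0, its size factors, no filter, a replicate block, single lines, the HSPA1A and HSPA1B sum, time as a term, 0 h alone, and each library left out. After seeing the data, a 1 h baseline, leaving out 3 libraries of 0 h at once and unscaled library totals were added. The 10 genes, the gene lists and the rule for named genes were chosen with earlier results of these data known. By that rule, up to 4 called genes per list were named at 3 h and up to 2 per list between lines, by size of change. HSP90AA1 and HSPA5 at 3 h were named in addition, after their values were seen. HSPA14 at 3 h was also named, beyond the 4 of its list. The fits were tested on simulated data. Libraries of one group varied beyond sampling noise, so none was merged.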

Additional observations from a re-analysis of the deposited data

Results flagged for a closer look

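In SoF, 1 value of DNAJB1 stood apart from the other 7 libraries of that line: 373.196 CPM in the 0 h replicate 1 library, which was the highest of the 8. The gap to the nearest other library was 0.552 of the whole range of the line, above Dixon's 95% critical value for 8 samples. Chance alone gives such a gap in about 1 of 20 groups, and 30 combinations of gene and line were looked at. The library differs from the others of its line in treatment time or replicate, and the cause was not tested.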

How the results depend on the processing

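Of the 10 genes, no called change reversed direction under any alternative. With edgeR as in the report, 1 gene was called in wt at 2 h, against 2 with DESeq2 (HSPD1 added) and 0 with its size factors in edgeR, with no low-count filter or with wt libraries alone. Without the filter, 2 genes were called in SoF at 1 h and 2 over lines at 1 h (HSPA1A and HSPA1B, both lower), 2 in SoF at 2 h (HSPB1 added) and 2 in Ctrl at 2 h (DNAJB1 added, lower), and DESeq2 also called 2 in Ctrl at 2 h. With 1 h as the baseline, 3 were called in wt at 3 h (HSF1 0.64, HSPA1A 0.66, HSPA1B 0.65), and DNAJB1 at 2 h over lines moved to -0.18 and was not called. Without the 3 replicate 2 libraries at 0 h, 3 of the 6 calls at 2 h over lines were left (HSF1, DNAJB1, HSPD1). Time as a term gave 2 calls for SoF against wt and 1 for Ctrl against wt. The share of all genes called under each of these alternatives is not given here, so the counts cannot be set against it. The cause of these shifts was not tested.

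Leaving out 1 library at a time gave 0 to 1 calls in wt at 2 h, 0 to 1 in SoF at 2 h, 1 to 5 in SoF at 3 h, 0 to 3 in Ctrl at 2 h, 1 to 6 in Ctrl at 3 h, 0 to 2 over lines at 1 h and 6 to 10 over lines at 3 h. The 2 calls at 1 h, HSPA1A and HSPA1B, came without SoF 0 h replicate 2 or Ctrl 0 h replicate 2. The 3 in Ctrl at 2 h came without Ctrl 0 h replicate 1. The 0 in SoF at 2 h came without SoF 0 h replicate 2 or SoF 2 h replicate 1. With a replicate block, 10 genes were called at 3 h over lines and 5 in SoF at 3 h, against 9 and 4, and no call was lost. The gene gained over lines was HSF2, lower, and the share of all genes called with the block is not given here. Same-numbered libraries deviated together among the 3 pairs of 0 h groups (r = 0.39 to 0.57), and in 21 of all 66 pairs of groups r was over 0.1. With 2 libraries in a group, the 95% intervals of single-line changes stay wide, and the lone library left by each omission is assumed to vary like those of the other groups.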

Other observations

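Between lines, with time ignored, some chaperone genes outside the heat shock set differed in level. The same rule called 8.02% of all genes for SoF against wt, 4.77% for Ctrl against wt and 3.61% for SoF against Ctrl. No list was tested against these shares. Of 12 other J-domain and BAG proteins, 1 was called higher in SoF against wt, which is not named here, and 2 lower. In SoF against wt, HSP90AA1, the inducible HSP90, was lower (log2 -0.40 ± 0.08 SE, edgeR adjusted p = 0.0017), and so were DNAJA4 (-0.53 ± 0.12), BAG5 (-0.27 ± 0.07), HSPB2 (-1.37 ± 0.22) and the ER chaperones HSPA5 (-0.56 ± 0.12) and SDF2L1 (-0.83 ± 0.20), while PPID was higher (0.34 ± 0.11). In Ctrl against wt, HSPB7 was lower (-1.69 ± 0.47) and was the only gene called on the chaperone lists. In SoF against Ctrl, HSPB7 was higher (2.46 ± 0.46), as was DNAJB9 (0.42 ± 0.11), and HSP90AA1 (-0.34 ± 0.08), BAG5 (-0.27 ± 0.07) and SERPINH1 (-0.42 ± 0.11) were lower. Each line was a single pool, so these differences cannot be told apart from differences between pools.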
